A study of Homo sapiens with 18 samples.

Results

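The comparison described here set the resistant 2 population of NCI-H460 cells against the parental line while both received the solvent alone, in 3 libraries each, 6 of the 18 libraries of the study. NCI-H460 is an established cell line from a human large cell carcinoma of the lung, labelled as adherent, epithelial and wild type in genotype. Resistant 2 is one of a pair of populations, #1 and #2, with resistance to decitabine together with all-trans retinoic acid (ATRA). The 3 groups used were parental, resistant 1 and resistant 2 cells with DMSO at 0.7% v/v in RPMI-1640 with fetal bovine serum. The solvent was added 24 h after seeding and RNA was taken at 72 h. The labels call the 3 libraries of a group biological replicates. The sources used here do not state how the resistance was raised or whether resistant 2 grew from a single cell. The 3 resistant 1 libraries with DMSO served to separate what resistant 2 shared with another resistant population from what it did not. They also entered the filter of tested genes and the estimate of spread that all 9 libraries shared.

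Decitabine is a cytidine analogue that enters DNA and traps DNA methyltransferases, so that methylation of CpG sites is lost over cell divisions. ATRA binds the retinoic acid receptors, which switch genes of differentiation. Whether the differences from parental cells described here stem from earlier exposure to these drugs was not tested.

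Levels are given as normalized counts, the deposited values scaled for sequencing depth. The 9 libraries held 116877643 to 140921034 reads. Libraries of 1 group differed by more than counting noise, with a chi-square per degree of freedom of 15.4 to 225, so none repeats another. A principal component analysis of the 2000 most variable genes set the 3 groups apart on axes that held 50.7% and 46.6% of the variance.

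Markers of carcinoma cells and of other cell types were read before the results. The simple epithelial keratin KRT8 stood at 71202 to 99952 in the parental libraries and 63730 to 103460 in resistant 2, and did not pass (adjusted p = 0.457). KRT18 went from 80345 ± 688 (SD, n = 3) to 53115 ± 5347, and KRT19 from 84570 ± 12790 to 31026 ± 10057. The label epithelial was met by these keratins but not by every defining gene. E-cadherin (CDH1) had 4 reads over the parental and 3 over the resistant 2 libraries, and the epithelial regulator GRHL2 had 10 and 1. The adhesion protein EPCAM went from 93.5 ± 8.84 to 3.88 ± 0.605 (log2 fold change -4.28, limma adjusted p = 5.26e-07). Summed over 10 carcinoma markers, the level was 225206 to 272483 in parental and 138062 to 206581 in resistant 2 libraries.

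Of 12 fibroblast markers 8 were tested, and 5 of these were higher and 2 lower than in parental cells (median 1.17). All 5 (COL1A1, PDGFRB, FAP, PRRX1 and MFAP5) were also particular to resistant 2, and the median over resistant 1 was 3.24. TWIST1 and THY1 had no read in resistant 2 and COL1A2 had 13. The summed level of the 12 was 8090 to 10061 in parental and 4126 to 5089 in resistant 2 libraries, mostly COL3A1 and lumican in the former and COL1A1 and PDGFRB in the latter, and 523 to 589 in resistant 1. The fibroblast protease FAP had 1 read in parental cells and stood at 60.8 to 110 in resistant 2. Summed endothelial markers (10 genes) ran from 108 to 114 in parental and 204 to 305 in resistant 2 libraries, with CLDN5 at 0 throughout. Resistant 1 libraries were higher still in this sum, at 368 to 474. Summed blood cell markers (12 genes) ran from 191 to 417 in parental and from 163 to 244 in resistant 2 libraries. The pan-leukocyte gene PTPRC stood at 15.9 ± 7.69 in resistant 2 after 1 read in parental cells. The part of such marker levels in the results that follow was not tested. In bulk libraries, fewer cells with a transcript and less of it per cell cannot be told apart.

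Resistant 2 differed from parental cells at most genes that were tested. Of 21643 genes, 13402 (61.9%) passed limma at a Benjamini-Hochberg adjusted p under 0.05. Of all tested genes, 6951 (32.1%) were higher and 6451 (29.8%) were lower, and the median log2 fold change was 0.02. Against resistant 1, 5627 (26%) were higher in resistant 2 and 5928 (27.4%) lower. A gene was called particular to resistant 2 where it passed against both other populations in 1 direction and its 3 libraries lay on 1 side of the other 6. By this rule 3618 genes (16.7%) were high and 3343 (15.4%) were low in resistant 2. Both comparisons use the same resistant 2 libraries. A difference of at least 2-fold against both populations was found for 1785 of the high and 1316 of the low genes, and one of at least 16-fold for 221 and 94. Resistant 1 against parental, with 6348 higher (29.3%) and 5754 lower genes (26.6%), shares the parental libraries and is set beside the values of resistant 2 without a test of overlap.

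The genes that set resistant 2 apart upward included a receptor kinase, matrix proteins, a growth factor binding protein and a cytokine receptor chain, with parental libraries between no read and 333 normalized counts. The 12 protein-coding genes with the largest smaller change of both comparisons had adjusted p of at most 2.13e-08 against parental and 7.48e-08 against resistant 1 (limma). They were chosen by the size of these same changes, so small p-values follow from the choice and add no support. CSF2RB, VWA2, PLPP4, SLC6A14, CFI and POSTN met the filter of at least 10 in 3 libraries only through resistant 2. In all 12, every resistant 2 library lay above the 6 others, as the rule requires.

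NTRK3 (ENSG00000140538, chromosome 15, 87859751 to 88256768, GRCh38, minus strand) encodes TrkC, the receptor tyrosine kinase for neurotrophin 3. Its parental libraries stood at 3.94, 0.958 and 0, the resistant 1 libraries at 182, 132 and 125, and the resistant 2 libraries at 36796, 46675 and 42491. It was thus nearly absent from parental cells, low in resistant 1 and among strongly expressed genes in resistant 2, with a log2 fold change of 14.26 ± 0.444 (SE) against parental. CSF2RB (ENSG00000100368, chromosome 22, 36913628 to 36940449, plus strand), the common beta chain of the receptors for GM-CSF, interleukin 3 and interleukin 5, had 3 reads over the resistant 1 libraries and none in parental cells. In resistant 2 it stood at 5188, 3020 and 1680, at least 1090-fold higher than a floor of 3 reads per parental library. Its resistant 2 libraries were more spread than those of NTRK3.

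IGFBP5 (ENSG00000115461, chromosome 2, 216672105 to 216695525, minus strand), a secreted binder of insulin-like growth factors, had 166, 313 and 333 in parental libraries. Its resistant 2 libraries had 319178, 343024 and 340680, or 1234-fold the parental mean, while resistant 1 (236 to 278) lay within the parental range. COL12A1, a collagen that associates with fibrils, stood at 266, 243 and 252 in parental, 648 to 737 in resistant 1 and 167309, 200159 and 208827 in resistant 2 cells. Both were among the more abundant transcripts of resistant 2 and were low but measurable in the other populations.

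Periostin (POSTN, ENSG00000133110, chromosome 13, 37562583 to 37598844, minus strand), a matricellular ligand of integrins, stood at 2.95, 3.83 and 5.41 in parental and at 2225, 3117 and 3717 in resistant 2 libraries. The complement serine protease factor I (CFI) stood at 5.91, 0.958 and 3.25 in parental and at 5295, 5588 and 5378 in resistant 2 libraries. Resistant 1 kept both at 13 or below. Ceruloplasmin (CP), a copper-carrying ferroxidase, had 25.6, 33.5 and 47.6 in parental, 5.21 to 6.37 in resistant 1 and 15002, 16230 and 16868 in resistant 2 libraries. It was lower in resistant 1 than in parental cells (-2.39, adjusted p = 4.21e-06 by limma) and 451-fold the parental mean in resistant 2. SLITRK6, a neuronal membrane protein, went from 9.58 to 14.8 in parental to 9878 to 11317 in resistant 2 libraries, and AFF2, a nuclear protein gene on the X chromosome, from 0.985 to 2.87 to 8180 to 11683. The remaining 3 had no parental read: the matrix protein VWA2 (997 to 1303 in resistant 2), the phosphatase PLPP4 (389 to 750) and the amino acid transporter SLC6A14 (277 to 730), at least 395-, 172- and 151-fold above the floor. Where a group has a handful of reads, a fitted change moves with the pseudocount of 1 and is not a bound.

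**Figure D1:**
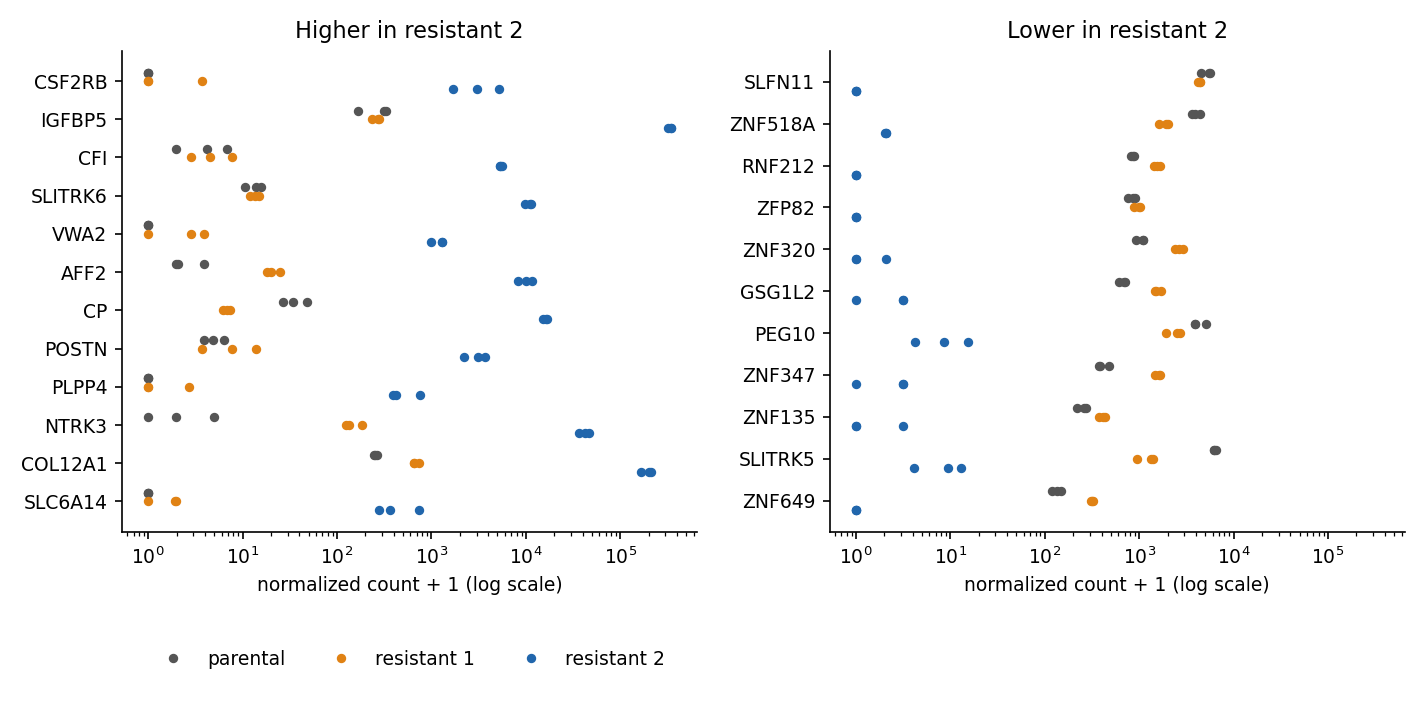
Normalized counts plus 1 on a log axis for the genes with the largest change that was particular to resistant 2, 1 point per library (3 parental, 3 resistant 1, 3 resistant 2). On the left the resistant 2 points lie above all others, up to 343024 for IGFBP5, and on the right they lie below all others, with SLFN11, RNF212, ZFP82 and ZNF649 without a read.

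The genes that set resistant 2 apart downward were led by a DNA damage response gene and by zinc finger genes. Of the 12 selected, 1 is not reported here. The other 11 had adjusted p of at most 4.01e-08 against parental and 3.07e-08 against resistant 1 (limma), which again follows from the choice. Their 3 resistant 2 libraries lay below the 6 others in each case, which the rule had fixed.

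SLFN11 (ENSG00000172716, chromosome 17, 35350305 to 35373701, minus strand) encodes a protein that blocks stressed replication forks and is known for sensitizing cancer cells to DNA-damaging drugs. It had 5655, 4545 and 5454 in parental, 4357, 4449 and 4177 in resistant 1 and no read in any resistant 2 library. Against the floor of 3 reads per library it was at least 1640-fold lower than in parental and 1360-fold lower than in resistant 1 cells. Resistant 1 and parental cells did not pass the test against each other (-0.26, adjusted p = 0.138). RNF212, an E3 ligase of meiotic recombination, stood at 865, 827 and 876 in parental and 1436 to 1662 in resistant 1 cells and was likewise without reads in resistant 2, at least 269-fold below parental.

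ZFP82 (ENSG00000181007, chromosome 19, 36383120 to 36418656, minus strand), a zinc finger gene with a KRAB repressor domain, had 857, 761 and 898 in parental, 882 to 1023 in resistant 1 and no read in resistant 2 libraries. ZNF649 had 134, 117 and 146 in parental cells and likewise no read in resistant 2. ZNF320 (921 to 1107 in parental) had 1 read, ZNF135 (219 to 270) had 2, and ZNF518A on chromosome 10 (3631 to 4421) had 3 over the resistant 2 libraries. ZNF347 stood at 372 to 475 in parental and 1479 to 1672 in resistant 1 cells and had 4 reads in resistant 2. Zinc finger genes of this kind have near-identical copies, so single values are uncertain.

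The imprinted gene PEG10, derived from a retrotransposon, stood at 5143, 3913 and 3875 in parental, 1909 to 2724 in resistant 1 and 14.4, 3.2 and 7.6 in resistant 2 libraries. SLITRK5, a relative of SLITRK6, moved opposite to SLITRK6, with 6241, 6179 and 6537 in parental and 3.08, 8.53 and 11.9 in resistant 2 libraries. GSG1L2, a claudin-like membrane protein gene, had 606 to 708 in parental cells and 4 reads over resistant 2.

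The bases before the start of 4 of these genes are shown because decitabine acts on CpG sites and these promoters differ widely in them. DNA methylation was not measured in these libraries. Each sequence is the 250 bases upstream of the RefSeq start (GRCh38.p14), written 5′ to 3′ on the gene's strand with each CpG in capitals. POSTN and NTRK3 were high in resistant 2 and SLFN11 and ZFP82 low.
POSTN: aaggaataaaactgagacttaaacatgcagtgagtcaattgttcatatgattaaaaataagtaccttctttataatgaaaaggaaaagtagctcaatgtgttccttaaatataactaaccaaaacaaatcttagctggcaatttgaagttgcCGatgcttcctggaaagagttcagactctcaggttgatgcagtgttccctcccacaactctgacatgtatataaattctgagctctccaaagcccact
NTRK3: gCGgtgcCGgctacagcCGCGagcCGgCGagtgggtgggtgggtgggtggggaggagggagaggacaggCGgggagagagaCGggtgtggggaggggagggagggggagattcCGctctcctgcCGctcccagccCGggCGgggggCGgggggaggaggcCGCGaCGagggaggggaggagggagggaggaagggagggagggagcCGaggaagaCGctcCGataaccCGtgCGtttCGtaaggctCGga
SLFN11: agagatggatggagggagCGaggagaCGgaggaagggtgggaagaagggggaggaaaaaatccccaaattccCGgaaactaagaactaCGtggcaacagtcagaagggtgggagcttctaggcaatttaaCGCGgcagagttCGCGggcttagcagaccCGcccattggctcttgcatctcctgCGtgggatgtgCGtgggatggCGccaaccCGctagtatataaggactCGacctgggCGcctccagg
ZFP82: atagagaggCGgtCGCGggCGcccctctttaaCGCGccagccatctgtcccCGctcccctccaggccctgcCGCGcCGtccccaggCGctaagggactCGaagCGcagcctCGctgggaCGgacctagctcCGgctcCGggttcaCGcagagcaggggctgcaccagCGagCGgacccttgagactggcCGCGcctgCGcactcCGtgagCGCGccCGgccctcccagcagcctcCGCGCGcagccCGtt
The POSTN window (chr13:37598769-37599018, minus strand) holds 1 CpG and the NTRK3 window (chr15:88256740-88256989, minus strand) holds 23. The SLFN11 window (chr17:35373622-35373871, minus strand) holds 15 and the ZFP82 window (chr19:36418645-36418894, minus strand) 31. In these 4 chosen windows, a promoter rich in CpG was thus found in both directions. Other high genes with a window were mixed: CFI and AFF2 held 1 CpG each, SLITRK6 3, SLC6A14 4 and IGFBP5 8. COL12A1 held 21, and VWA2 (5 and 28) and PLPP4 (25 and 34) had 2 windows each. Among other low genes with a window, GSG1L2 held 8 and 1 ZNF518A window held 7. The remaining windows of low genes held 12 to 30.

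Over all tested protein-coding genes, 11793 of 14691 (80.3%) matched a promoter by symbol, and 84.1% of these held at least 10 CpG in the window, counted as CG, which reads the same on both strands. The median was 20 CpG (quartiles 13 and 27). Genes particular to resistant 2 and low had a median of 20 (2065 of 2503 matched, quartiles 14 and 26), the same as all genes, and all tested zinc finger genes 17.5 (433 of 509). For the genes particular to resistant 2 and high only 2198 of 2831 (77.6%) matched, under 80%, so that comparison is void.

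A wider view of genes that were switched between near silence and clear expression was drawn after the values were seen and carries no test. It took protein-coding genes with a mean under 10 in both other populations and at least 100 in resistant 2 as on, and the reverse as off. There were 39 on and 38 off. The on genes included the stem cell factor SOX2 (5.75 ± 1.82 in parental, 304 ± 56.3 in resistant 2), the WNT inhibitor WIF1 (0.328 to 107) and the sodium channel subunit SCN2A (8.89 to 320). On chromosome 15 lay 5 on genes, among them the pacemaker channel HCN4 and the cardiac actin ACTC1, and on chromosome 2 lay 7. None of the 39 was a zinc finger gene by name. Of the 38 off genes, 15 were zinc finger genes, 12 of these on chromosome 19. Over all 14691 tested protein-coding genes, 509 were zinc finger genes (236 on chromosome 19), 491 lay on chromosome 15 and 1005 on chromosome 2. The DNA sensor CGAS was off (863, 661 and 7.15 in parental, resistant 1 and resistant 2 cells), as were the synaptic adhesion gene NLGN1 (972, 500 and 3.19) and the exchange factor VAV1 (215, 165 and 5.94).

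The composition of the transcriptome differed as well, through other and more abundant genes. Fibronectin (FN1) took 4.47 to 5.08% of the counts in resistant 2 libraries. It had 383919, 348311 and 413658 normalized counts in parental and 6230905, 6927291 and 6153016 in resistant 2 cells, a log2 fold change of 4.08 ± 0.107 (adjusted p = 2.24e-10). The aldehyde dehydrogenase ALDH3A1 went from 0.0628% of counts in parental and 0.03% in resistant 1 to 0.608% in resistant 2, with resistant 2 libraries spread from 0.364% to 0.947%. Osteopontin (SPP1) went from 0.117% to 0.574%, the matrix protein TGFBI from 0.138% to 0.554% and the metalloproteinase inhibitor TIMP1 from 0.0266% to 0.292%. COL8A1, a short-chain collagen, and the prion protein gene PRNP went from 0.0292% to 0.225% and from 0.0341% to 0.201%. FN1, ALDH3A1, SPP1, TGFBI, TIMP1, COL8A1 and PRNP were also higher than in resistant 1. The chemokine CXCL8 (0.0702% to 0.4%) and the protease inhibitor SERPINE2 (0.042% to 0.226%) were not: CXCL8 did not pass against resistant 1 (0.07, adjusted p = 0.917), and SERPINE2 was lower there (-0.92, adjusted p = 3.16e-05).

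The largest losses of share were in housekeeping and lipid genes. The fatty acid desaturase SCD fell from 0.261% of counts to 0.0241%, the ferritin light chain FTL from 0.711% to 0.451%, the chaperonin HSPD1 from 0.328% to 0.108% and the nucleolar protein NPM1 from 0.297% to 0.0889%. FTL was lower still in resistant 1 (0.366%). GAPDH went from 0.651% to 0.454% (-0.40, adjusted p = 0.0296). Its parental and resistant 2 libraries overlapped, and its call ended in a fit of the 6 libraries alone (adjusted p = 0.102). It also ended without parental replicate 1 (0.0888) or 2 (0.0672), or without resistant 2 replicate 1 (0.116) or 2 (0.0823). FTL, HSPD1, NPM1 and GAPDH have many processed copies in the genome, so their values are uncertain.

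**Figure D2:**
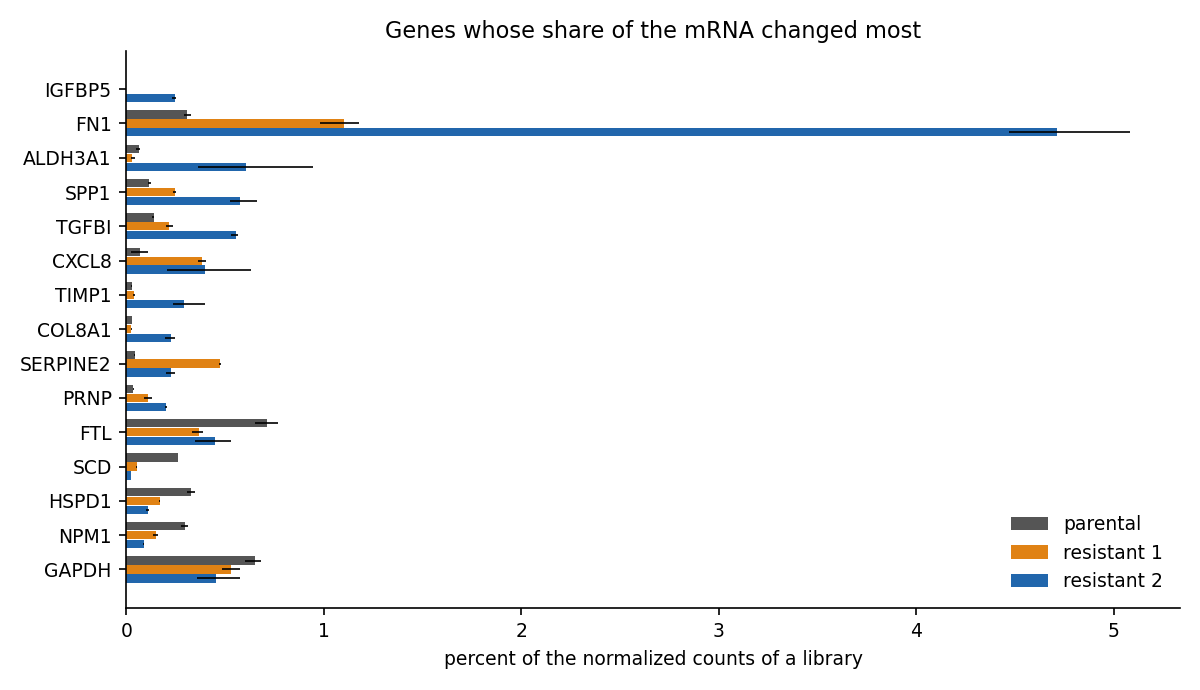
Percent of the normalized counts of a library taken by the genes whose share rose or fell most from parental to resistant 2. Bars are means of 3 libraries, starting at 0, and lines run from the lowest to the highest library. FN1 reached 4.71% in resistant 2 against 0.309% in parental cells, and SCD fell from 0.261% to 0.0241%.

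Gene lists that fit a lung carcinoma line and its matrix, signalling and metabolism are described by counts and medians, to be read against 32.1% higher and 29.8% lower over all tested genes and a median of 0.02. Because the lists were drawn up with earlier results of these data known, nothing is called particular to a list.

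Genes of the extracellular matrix were mostly higher. Of 20 tested laminin and basement membrane genes, 15 were higher and 2 lower than in parental cells (median log2 fold change 1.25), and 12 were particular to resistant 2 and high. The laminin chain LAMA4 had 1.97, 4.79 and 3.25 in parental and 38276, 35469 and 37544 in resistant 2 libraries, with resistant 1 between (1514 to 2336). The chain LAMA3 went from 1936 ± 208 to 14809 ± 2099, and the linker nidogen 1 (NID1) from 153 ± 28.4 to 4206 ± 1334. Of 21 collagens outside the basement membrane, 13 were higher and 7 lower (median 1.35). COL5A1, of the fibril core, stood at 709, 630 and 504 in parental, 96.4 to 120 in resistant 1 and 19939, 22571 and 34914 in resistant 2 libraries. COL14A1 went from 53.8 ± 4.94 to 2099 ± 446. The fibrillar genes did not move as a block: COL1A1 rose (820 ± 247 to 2195 ± 652, adjusted p = 0.000692), while the cartilage collagen COL2A1 fell from 1165 ± 332 to 27.1 ± 13 and COL3A1 from 6475 ± 1063 to 456 ± 86.2.

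Of 30 matricellular and crosslinking genes, 23 were higher and 3 lower (median 2.51), where resistant 1 had 20 higher and 5 lower (median 1.41), and 14 were particular to resistant 2 and high. Lysyl oxidase (LOX), which crosslinks collagen, stood at 22.6, 15.3 and 18.4 in parental, 42.5 to 53.7 in resistant 1 and 3174, 2661 and 2908 in resistant 2 libraries. The proteoglycan versican (VCAN) had 40 to 64 in parental and 2587, 4640 and 6388 in resistant 2 libraries. Both were particular to resistant 2. Tenascin C (TNC), with 3 reads in parental cells, was higher in resistant 2 (1153 ± 350) but did not pass against resistant 1 (735 ± 156, adjusted p = 0.187).

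Of 22 matrix metalloproteinases, ADAM proteases and their inhibitors, 13 were higher and 3 lower (median 1.80). The gelatinase MMP2 had 4.92, 3.83 and 2.16 in parental, 971 to 1045 in resistant 1 and 79766, 106261 and 146033 in resistant 2 libraries. Its inhibitor TIMP3 moved with it, from 4.79 to 30.3 in parental to 22559 to 40390 in resistant 2 libraries, and so did ADAM12 (341 ± 15.1 to 6655 ± 1179). The stromelysin MMP3, without a parental read, stood at 29.7 ± 7.55 in resistant 2 and was higher in resistant 1 (266 ± 245, adjusted p = 0.000822). Of 20 integrin subunits, receptors for these matrix proteins, 15 were higher and none lower (median 1.53, or 2.37 over the 18 left by a filter at 50), and 5 did not pass. Resistant 1 had 13 higher and 4 lower (median 1.00), and 9 were particular to resistant 2 and high. The collagen receptor chain ITGA11 went from 309 ± 24.6 in parental and 69 ± 5.72 in resistant 1 to 4489 ± 853, and the chain ITGB3 from 5.41 ± 1.4 to 558 ± 248. ITGA3, the chain of a laminin receptor, was high in both resistant populations (93003 ± 13730 in resistant 1 and 84054 ± 12861 in resistant 2, adjusted p = 0.386 between them).

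**Figure D3:**
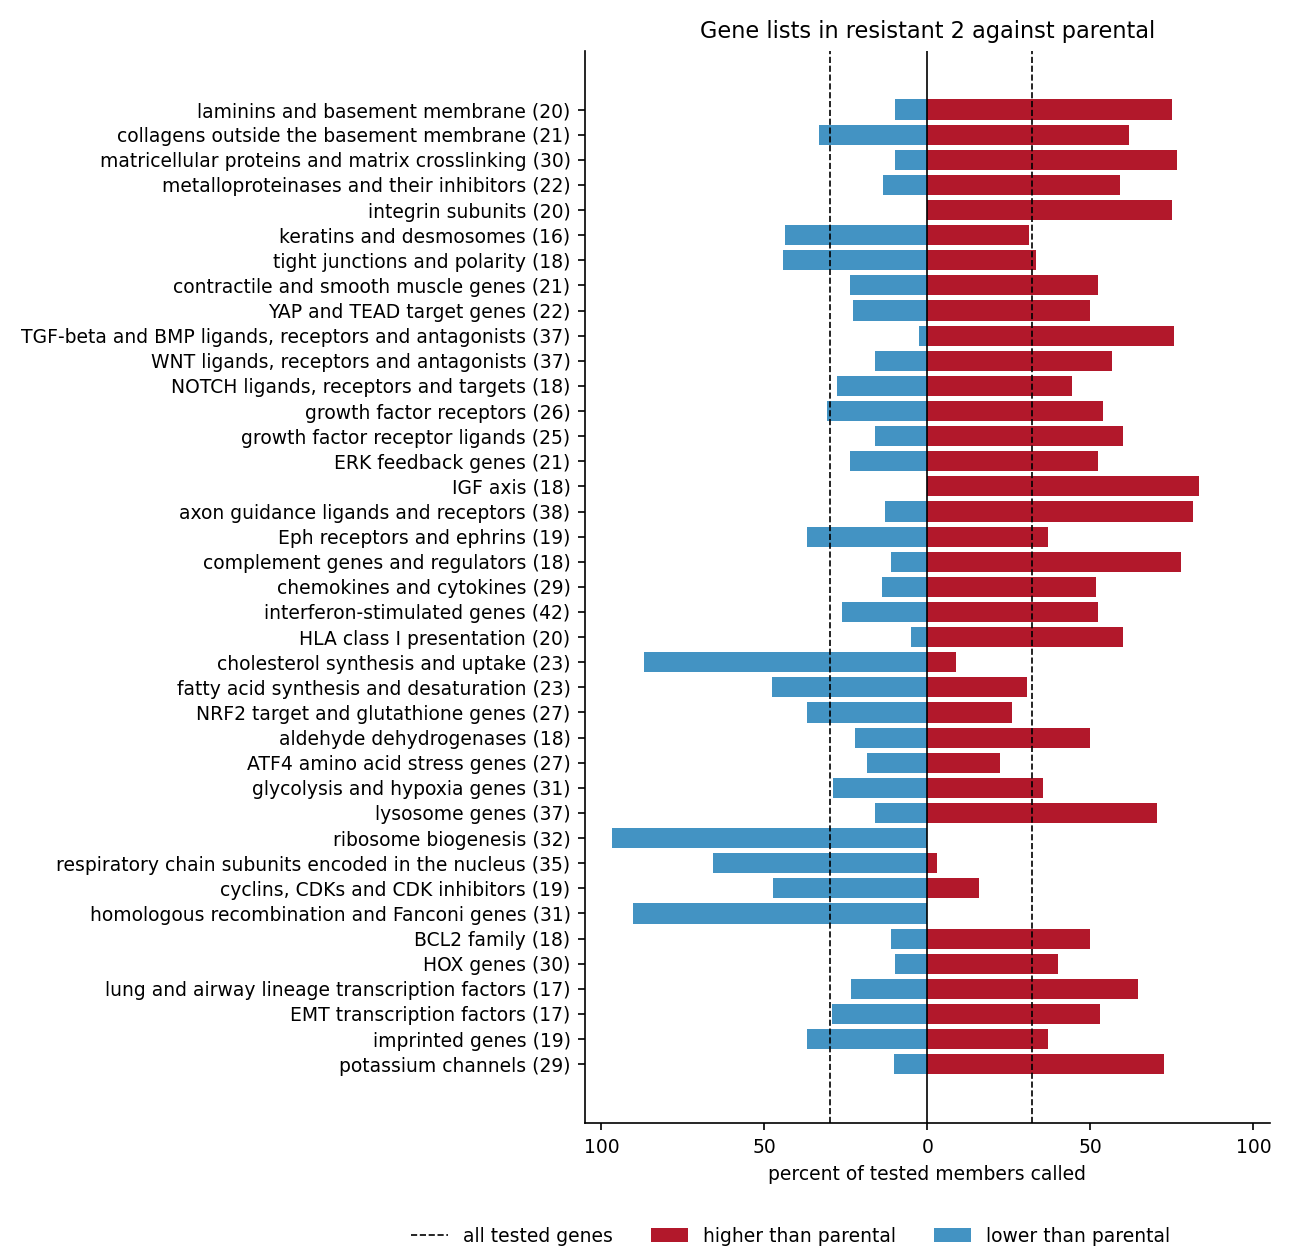
Percent of the tested members of each gene list called higher (right) or lower (left) in resistant 2 than in parental cells, with the number of members tested in brackets. Dashed lines mark all tested genes, 32.1% higher and 29.8% lower. Of 18 IGF axis genes 15 were higher, and of 32 ribosome biogenesis genes 31 were lower.

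Secreted signals and their receptors were the next group. Of 37 ligands, receptors and antagonists of the TGF-beta and BMP pathways, which act through SMAD transcription factors, 28 were higher and 1 lower (2 without parental replicate 2, median 1.57). Against both other populations 22 were high. BMP4 had 2 reads in parental cells and stood at 330, 1262 and 1872 in resistant 2, the activin chain INHBB went from 9.85 ± 4.09 to 388 ± 106 and the BMP antagonist noggin (NOG) from 10.8 ± 7.6 to 232 ± 41.9. Of 37 WNT pathway genes, 21 were higher and 6 lower (median 0.68). The ligand WNT4 had 19.7, 19.2 and 31.4 in parental, 70 to 100 in resistant 1 and 7135, 8212 and 8569 in resistant 2 libraries. RNF43, an E3 ligase that removes WNT receptors, went from 2.39 ± 1.25 to 1084 ± 193, while the ligand WNT10B fell from 1474 ± 137 to 128 ± 19.8.

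Of 25 ligands of growth factor receptors, 15 were higher and 4 lower (median 1.21). TGFA, a ligand of the EGF receptor, had 46.3, 66.1 and 92 in parental, 817 to 1032 in resistant 1 and 216431, 227912 and 195257 in resistant 2 libraries. Its log2 fold change was 11.64 ± 0.203 (limma, adjusted p = 1.43e-11), and its groups lay far apart. BDNF, the ligand of TrkB, went from 7557 ± 1681 to 32093 ± 4746 and VEGFA, the main angiogenic factor, from 10385 ± 401 to 31942 ± 5814. Of 26 growth factor receptors, 14 were higher and 8 lower, and resistant 1 had 12 and 7. Beside NTRK3, the TrkB gene NTRK2 went from 34.5, 40.2 and 36.8 to 2216, 2234 and 2192 with resistant 1 at 42.8 to 53. The stem cell factor receptor KIT had no parental read and stood at 264, 531 and 655 in resistant 2. Of 18 genes of the IGF axis, 15 were higher and none lower (median 1.53), where resistant 1 had 13 higher and 1 lower (median 1.02), and 9 were particular to resistant 2 and high. IGFBP4 had 2027, 1737 and 1493 in parental and 107333, 98606 and 108621 in resistant 2 libraries and was particular to resistant 2. IGFBP1, with 6.89 to 21.6 in parental cells, did not pass between resistant 1 and resistant 2 (3709 ± 334 and 4053 ± 1956, adjusted p = 0.994).

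Of 38 axon guidance ligands and receptors, which steer cell movement and contact, 31 were higher and 5 lower (median 1.38). SLIT3, a secreted ligand of ROBO receptors, had 1.97, 2.87 and 0 in parental, 437 to 493 in resistant 1 and 56290, 44142 and 46229 in resistant 2 libraries. The netrin receptor UNC5C had no parental read and stood at 3351, 5504 and 5960. The semaphorins parted: SEMA6D went from 46 to 77.8 in parental to 4117 to 5087 in resistant 2 libraries, and SEMA3E fell from 6294, 6084 and 7527 to 15.4, 12.8 and 9.77. Of 19 Eph receptors and ephrins, 7 were higher and 7 lower. EPHB1 went from 47.9 to 71.9 in parental to 2239, 2733 and 2433 in resistant 2 libraries, and EPHA6 from 338 ± 42.8 to 1 read. Of 29 potassium channel genes, 21 were higher and 3 lower (median 1.66), 17 of them particular to resistant 2 and high. The inward rectifier KCNJ6 had 12.4 to 20.7 in parental and 3998, 3761 and 2847 in resistant 2 libraries.

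NOTCH pathway genes (18) were split, with 8 higher and 5 lower (3 without parental replicate 2). The ligand JAG1 went from 2315 ± 382 to 21701 ± 2092 and the target HEY1 from 151 ± 19 to 1450 ± 145, while the target NRARP fell from 384 ± 61.1 to 42.2 ± 10.1. Of 22 target genes of YAP and TEAD, which respond to cell shape, 11 were higher and 5 lower, and resistant 1 had 11 and 4. ANKRD1 went from 946 ± 358 to 49280 ± 16022 and tissue factor (F3) from 726 ± 54 to 6199 ± 334. Of 21 genes listed as ERK feedback genes, 11 were higher and 5 lower, and resistant 1 had 10 and 6. Cyclin D1 (CCND1) and MYC, growth genes downstream of ERK rather than feedback regulators, moved in opposite directions. CCND1 stood at 14685, 14692 and 14840 in parental and 41494, 59444 and 80984 in resistant 2 libraries, and MYC fell from 46891 ± 7337 to 11648 ± 945.

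Epithelial and lineage genes did not move in 1 direction. Of 16 keratin and desmosome genes, 5 were higher and 7 lower (median -0.17, but -0.10 without resistant 2 replicate 1 and -0.28 without replicate 3). KRT81, a hair keratin, had 2105, 2293 and 1373 in parental, 221 to 560 in resistant 1 and 126283, 83519 and 96946 in resistant 2 libraries. KRT86 rose too (90.2 ± 15.5 to 1619 ± 385), and these hair keratins are near-identical copies, so their separate values are uncertain. The desmosomal genes PKP2 (1251 ± 147 to 8868 ± 1939) and DSP (325 ± 49.1 to 1585 ± 132) were higher. Of 18 tight junction and polarity genes, 6 were higher and 8 lower. Claudin 4 (CLDN4) had 2534, 2347 and 1319 in parental, 5788 to 9218 in resistant 1 and 33.9, 33 and 52.1 in resistant 2 libraries, and CLDN7 fell from 628 ± 86 to 19 ± 7.38. Claudin 1 (CLDN1) was higher (18578 ± 4033 to 41790 ± 3340).

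Of 17 transcription factors of EMT (epithelial-mesenchymal transition), 9 were higher and 5 lower (3 lower without parental replicate 3 or with the 6 libraries alone). TCF4, a basic helix-loop-helix factor, stood at 1865, 1525 and 2009 in parental, 899 to 1101 in resistant 1 and 22697, 22624 and 20296 in resistant 2 libraries. PRRX1 went from 6.79 ± 2.9 to 442 ± 78.9, and SNAI1 fell from 707 ± 160 to 120 ± 19.2. Of 17 lung and airway lineage factors, 11 were higher and 4 lower. Beside SOX2, TBX2 went from 998 ± 137 to 8518 ± 1770 and GATA6 from 205 ± 7.24 to 915 ± 105, while the epithelial factor GRHL3 fell from 124 ± 44.7 to 10.1 ± 10. Of 21 contractile and smooth muscle genes, 11 were higher and 5 lower, and resistant 1 had 11 and 2. Tropomyosin TPM2 stood at 4054 ± 628 in parental, 864 ± 65.7 in resistant 1 and 16120 ± 2544 in resistant 2. Of 30 tested HOX genes, 12 were higher and 3 lower, and 15 did not pass.

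Most complement genes were higher. Of 18 complement genes and regulators, 14 were higher and 2 lower (median 1.93, or 1.20 with a pseudocount of 10). Resistant 1 had 9 higher and 4 lower (median 0.56). Beside CFI, the central component C3 had 66, 70.9 and 77.9 in parental and 21937, 15981 and 21937 in resistant 2 libraries, and the protease C1R went from 432 ± 7.96 to 5990 ± 990. The receptor C5AR1 fell from 3278 ± 516 to 337 ± 26.1. Of 29 chemokines and cytokines, 15 were higher and 4 lower (median 0.75), and resistant 1 had 17 and 3 (median 1.16). The higher ones included CCL2 (3.41 ± 2.24 to 365 ± 199) and IL1B (130 ± 18.9 to 2805 ± 1080). Of 42 interferon-stimulated genes, 22 were higher and 11 lower (median 0.60). XAF1, a pro-apoptotic gene of this group, had 0.958 to 3.25 in parental and 437, 465 and 267 in resistant 2 libraries. Of 20 genes of HLA class I presentation, 12 were higher and 1 lower, and resistant 1 had 12 and 2. The count of lower genes was 3 without parental replicate 2 and 2 without parental replicate 3 or resistant 2 replicate 3. HLA-B went from 1975 ± 55.6 to 17078 ± 3437, where resistant 1 stood at 13596 ± 422 (adjusted p = 0.0511 between them). HLA genes are similar to one another, so reads may be split among them.

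Most genes of sterol synthesis, and 23 of 35 respiratory chain genes, were lower. Of 23 genes of cholesterol synthesis and uptake, 20 were lower and 2 higher (median -1.32), and 16 were particular to resistant 2 and low. Resistant 1 against parental had 16 lower and 3 higher (median -0.80). INSIG1, a sterol sensor that is itself a target of SREBP, had 10545, 9944 and 9645 in parental, 2821 to 3116 in resistant 1 and 648, 497 and 554 in resistant 2 libraries. The synthesis enzymes LSS and EBP fell by 2.09 and 2.00 on the log2 scale. Of 23 fatty acid genes, 11 were lower and 7 higher, and resistant 1 had 13 lower and 7 higher. SCD had 309252 to 330698 in parental and 30558 to 35641 in resistant 2 libraries. The desaturase FADS2 fell from 19984 ± 4873 to 752 ± 31.5 without passing against resistant 1 (984 ± 45.6, adjusted p = 0.053).

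Of 35 nuclear-encoded respiratory chain genes, 23 were lower, 1 was higher (2 without parental replicate 1) and 11 did not pass (median -0.41), and resistant 1 had 10 higher and 4 lower. The complex I gene NDUFB10 had 13138, 12062 and 10721 in parental, 7493 to 8382 in resistant 1 and 4225, 4556 and 4888 in resistant 2 libraries. The ATP synthase chain ATP5F1B stood at 252752 ± 17498 in parental, 241148 ± 3006 in resistant 1 and 122246 ± 2113 in resistant 2. Of the 35 genes, 19 were particular to resistant 2 and low. Of 32 ribosome biogenesis genes, 31 were lower and none higher (median -0.98), as in resistant 1 (31 lower, median -0.73), and 11 were particular to resistant 2. Fibrillarin (FBL) went from 23763 ± 1065 to 6412 ± 207.

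Detoxifying enzymes and stress genes were mixed. Of 18 aldehyde dehydrogenases, 9 were higher and 4 lower. ALDH3A1 had 84088, 85117 and 62594 in parental and 506834, 698581 and 1271599 in resistant 2 libraries. ALDH1A1, which makes retinoic acid from retinal, had 8298 to 9681 in parental, 17117 to 20058 in resistant 1 and 220595, 177507 and 141885 in resistant 2 libraries. The folate enzyme ALDH1L1 fell from 158 ± 17.8 to 7.01 ± 2.82. The retinal dehydrogenase ALDH1A2 was low (2.84 ± 4.13 to 8.9 ± 3.96), and its call (1.87, adjusted p = 0.0249) ended in a fit of the 6 libraries alone (0.0756), with edgeR (0.0657) and after quantile normalization (0.0673). It also ended without parental replicate 1 (0.102) or 2 (0.0856) or resistant 2 replicate 2 (0.056) or 3 (0.0729). Of 27 NRF2 target and glutathione genes, 7 were higher and 10 lower, with the transporter ABCC3 higher (23509 ± 2237 to 116390 ± 14126). The call of OSGIN1 in this list (-0.97, adjusted p = 0.0191) ended without parental replicate 1 (0.0726) or 2 (0.0854) or resistant 2 replicate 1 (0.0765) or 2 (0.064). Of 27 ATF4 amino acid stress genes, 6 were higher and 5 lower than in parental cells (median 0.06), and 16 did not pass. Against resistant 1, 21 were higher and 1 lower. Resistant 1 itself had 18 lower and 2 higher than parental (median -0.71), and 5 genes were particular to resistant 2 and high. Of 31 glycolysis and hypoxia genes, 11 were higher and 9 lower (5 lower without parental replicate 1 or resistant 2 replicate 1 or 2). Of 37 lysosome genes, 26 were higher and 6 lower (median 0.94), a count that stood at 29 and 2 in resistant 1. Cathepsin A (CTSA) went from 12479 ± 747 to 67390 ± 3873.

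Most genes of DNA repair by homologous recombination and of the Fanconi pathway were lower in both resistant populations. Of 31 tested, 28 were lower and none higher in resistant 2 (median -1.52), and 27 were lower and none higher in resistant 1 (median -1.09), against the same parental libraries. Of the 31, 16 were particular to resistant 2 and low. BRCA1 had 15328, 12774 and 15094 in parental, 4872 to 5287 in resistant 1 and 1011, 1471 and 1921 in resistant 2 libraries. The nuclease EXO1 had 62997 to 74180 in parental and 3827, 4751 and 6533 in resistant 2 libraries, and XRCC2 went from 5889 ± 401 to 808 ± 260. Of 19 cyclins, CDKs and CDK inhibitors, 9 were lower and 3 higher, and resistant 1 had 10 lower and 4 higher. Cyclin A2 (CCNA2) went down from 14308 ± 1243 to 3225 ± 583. Of 18 BCL2 family genes, 9 were higher and 2 lower. The proapoptotic gene BMF went from 25.6 ± 4.89 to 413 ± 143, where resistant 1 stood at 390 ± 57.2.

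Imprinted genes (19), which are transcribed from the copy of one parent, had 7 higher and 7 lower members. Beside PEG10, MEST had 4939, 4067 and 4686 in parental, 2215 to 2774 in resistant 1 and 17.5, 40.5 and 47.8 in resistant 2 libraries. NDN stood at 82.3 to 94.5 in parental, 1103 to 1348 in resistant 1 and 2.05, 4.26 and 8.69 in resistant 2 libraries, so that the 3 populations did not overlap. TFPI2, like PEG10 on chromosome 7, was lower in resistant 2 (11599 ± 668) than in parental cells (35393 ± 11357) but higher than in resistant 1 (7015 ± 869). At 9p21, CDKN2B had no read in any library, and CDKN2A had none in parental and resistant 1 cells and 4 over the resistant 2 libraries. The neighbouring MTAP was expressed and did not pass (15123 ± 1602 and 15031 ± 2281, adjusted p = 0.929), while DMRTA1 went from 127 ± 10.4 to 1103 ± 65.8.

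The differences were uneven along the genome. Over 14691 tested protein-coding genes on chromosomes 1 to 22 and X, 36.3% were higher and 32.4% lower than in parental cells. On chromosome 15, 339 of 491 (69%) were higher and 62 (12.6%) lower, with a median log2 fold change of 0.74. The 3 resistant 2 libraries had medians of 0.76, 0.75 and 0.75 there, against -0.06 to 0.05 in parental and -0.23 to -0.20 in resistant 1 libraries. Against resistant 1 the median was 0.94, with 74.9% higher, and 288 genes of chromosome 15 were particular to resistant 2 and high but 12 low. NTRK3, SEMA6D, ITGA11 and HCN4 lie there, as does NDN, which was low.

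Chromosome 10 went the other way: 285 of 576 (49.5%) were lower, the median was -0.34 (libraries -0.34, -0.31 and -0.37), and 54.7% were lower than in resistant 1. On chromosome 16, 43.4% were lower (median -0.28) and on chromosome 7, 43.1% (median -0.23), while chromosome 8 had 48.3% higher (median 0.28) and chromosome 20 45.9% (median 0.26). For chromosome 20 the resistant 1 libraries also lay above the parental ones. On chromosome 16 the median of resistant 1 against parental was -0.14, and the parental libraries themselves were spread (0.09, 0.06 and -0.15). Its median for resistant 2 against parental ran from -0.22 to -0.40 when 1 library was left out. These medians are descriptions, since genes of 1 chromosome are not replicates.

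**Figure D4:**
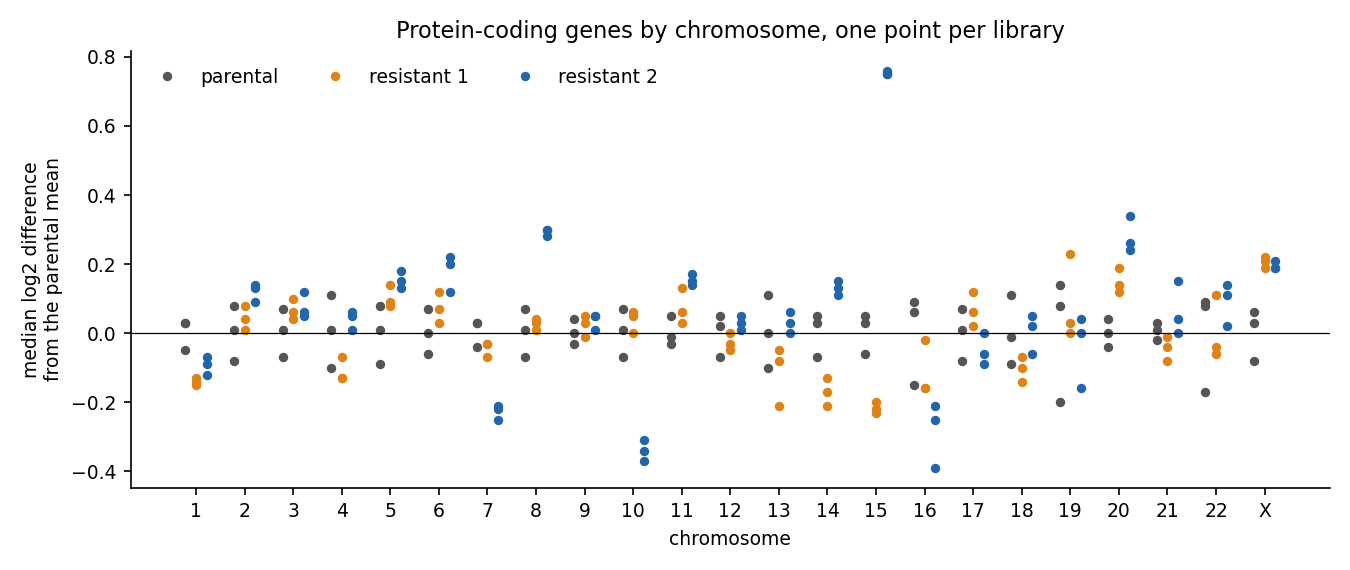
Median difference in log2(normalized count + 1) from the parental mean over the protein-coding genes of each chromosome, 1 point per library. The 3 resistant 2 points of chromosome 15 (0.75 to 0.76) lie apart from the other 6, and those of chromosome 10 (-0.37 to -0.31) lie below the other 6.

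Within chromosomes, running medians over 25 neighbouring genes marked the stretches that moved furthest. The highest, 2.87, lay on chromosome 5 in the run from GNPDA1 to PDGFRB (141991749 to 150155872, 43 genes, 27 higher and 11 lower). It holds the SPINK genes, secreted protease inhibitors. SPINK5 stood at 38.3 to 57.4 in parental, 14.6 to 20.3 in resistant 1 and 1943, 1466 and 1671 in resistant 2 libraries. The phosphatase subunit PPP2R2B stood at 0 to 2.95 in parental, 18.2 to 41.5 in resistant 1 and 636, 992 and 1386 in resistant 2 libraries. The longest high run, with 96 genes from GOLGA6L9 to TARSL2 on chromosome 15 (82430018 to 101724604), had 71 higher and 9 lower and a median of 1.02.

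The lowest running median, -2.71, lay on chromosome 19 in the run from NDUFA13 to PLEKHF1 (19515736 to 29675457). The run includes the zinc finger cluster of band 19p12 (19710471 to 24129961), whose genes mostly carry KRAB domains and encode proteins best known for silencing transposable elements through TRIM28. Of 28 tested zinc finger genes in that cluster, 20 were lower and 2 higher than in parental cells (median -2.59), and 20 were particular to resistant 2 and low. Against resistant 1, 27 were lower and none higher (median -5.34). Resistant 1 itself had 19 higher and 1 lower than parental (median 1.67). A mean under 10 was found for 18 of the 28 in resistant 2, 8 in parental and 0 in resistant 1 cells. All 8 of these low parental genes met the filter of at least 10 in 3 libraries only through resistant 1. The 0 for resistant 1, and the counts and medians that set resistant 1 above either population, are thus in part fixed by the filter. ZNF91 went from 138 in parental and 2408 in resistant 1 to 5.37 in resistant 2, and ZNF486 from 12.8 and 468 to no read. ZNF430 (977, 902 and 247) and ZNF431 (1768, 2285 and 1021) kept part of their level.

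The rest of chromosome 19 was less uniform. In the cluster at 19q13.1, 25 of 33 were lower and 3 higher (median -0.71), and at 19q13.4, 50 of 97 were lower and 16 higher (median -0.44). At 19q13.2, 8 of 23 were higher and 6 lower (median 0.23). Over the chromosome, 112 of 236 zinc finger genes were lower and 42 higher in resistant 2, and 79 were particular to it and low, while resistant 1 had 43 lower and 90 higher. The filter bears on the counts of resistant 1 here too, since 29 of the 236 had a parental mean under 10 and 0 a resistant 1 mean under 10. Outside chromosome 19, 108 of 273 were lower and 65 higher than in parental cells, and 84 were higher and 68 lower than in resistant 1. Since these genes share sequence, reads can be placed on the wrong copy, and single values are uncertain.

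**Figure D5:**
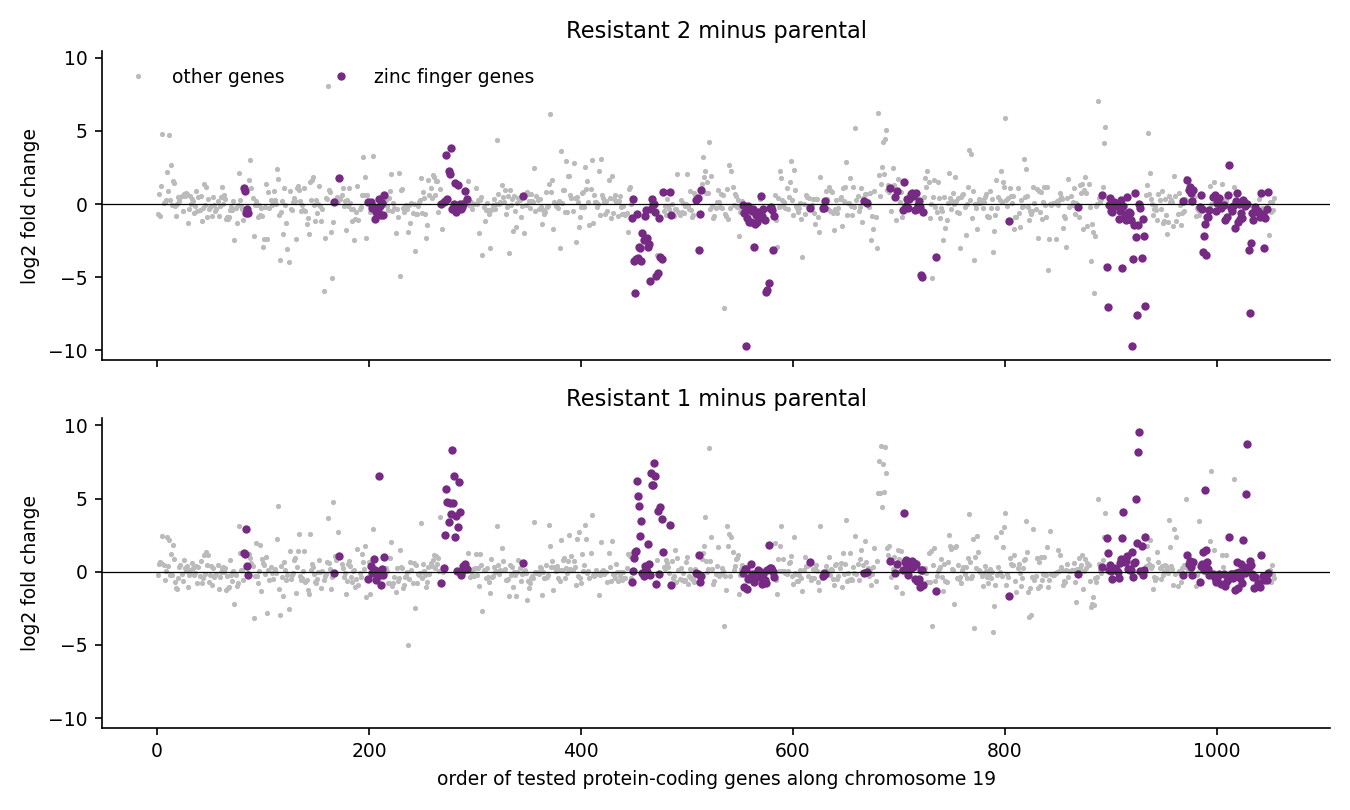
Log2 fold change against parental cells for each tested protein-coding gene of chromosome 19, in order along the chromosome, in resistant 2 (top) and resistant 1 (bottom), with zinc finger genes in purple. In the 19p12 cluster the medians were -2.59 in resistant 2 and 1.67 in resistant 1. At least 8 of its 28 genes met the filter only through resistant 1. Both panels share the parental libraries.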

How the data were processed

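Gene expression was measured by stranded mRNA sequencing (TruSeq) of NCI-H460 cells. Per the submitters' processing notes, the authors used FastQC, MultiQC, STAR, featureCounts and DESeq2 with GRCh38. The sources used here do not give versions or the strand setting. The deposited values are counts divided by size factors, a normalized signal per gene. Of these values, 100% came out as whole reads within 0.01 of a read. Libraries held 116877643 to 140921034 reads, and replicates differed by more than counting error at that depth.

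The 9 DMSO libraries were fitted together with limma 3.58.1 (R 4.3.3, trend) on log2(value + 1). Fold changes on that scale understate the change of low genes. Genes with at least 10 in 3 libraries (21643 of 58051) were tested and p-values were adjusted over all of them by Benjamini-Hochberg. The contrasts were resistant 2 against parental and against resistant 1. The table of cells given both drugs was not used here.

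Genes were named by rule among protein-coding genes with a mean of at least 50. The rule took the 12 highest and 12 lowest particular genes by the smaller of both changes, the 10 and 5 with the largest rise and fall of share, up to 4 called members of each of 44 lists by size of change, and every tested 9p21 and marker gene. The members and lists were chosen with earlier results of these data known. Genes switched on or off, those of the runs along chromosomes and single zinc finger genes were chosen after their values were seen. Some selected genes are not reported here. Promoters came from RefSeq tables matched by symbol.

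Alternatives were edgeR 4.0.16 and DESeq2 1.42.0 on the recovered reads, no filter or a filter of 50, a pseudocount of 10, quantile normalization, the 6 libraries alone, a replicate block and leaving out each library. In the count test on recovered reads, edgeR called 7055 genes higher and 6357 lower. In simulated data (21643 genes, resistant 2 against parental), 60 genes were changed by 1.5-fold, 73 by 2-fold and 67 by 4-fold. Of these, limma found 28.3%, 57.5% and 88.1%, with 8.53% false calls. How limma performs where a share of genes as large as the 61.9% called here is changed was not tested.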

Additional observations from a re-analysis of the deposited data

How the results depend on the processing

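The 6 counts of genes stayed within 1.5 times their value in every alternative run. Leaving out 1 library at a time gave 6361 to 6968 higher and 5797 to 6387 lower genes against parental, 4753 to 5565 and 5024 to 5892 against resistant 1, and 3200 to 3735 high and 2928 to 3531 low genes particular to resistant 2. Quantile normalization shifted the median of all genes by -0.127, so that 45.6% of the called genes were higher (6139 higher and 7324 lower), against 51.9% before. Under it the chromosome medians moved to 0.65 (chromosome 15), -0.42 (chromosome 10), -0.34 (chromosome 7) and 0.18 (chromosome 20), by an amount close to that shift.

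Parental and resistant 2 libraries with the same replicate number did not deviate together (correlations -0.05, -0.17 and -0.159). Those of resistant 1 and resistant 2 had 0.085, 0.264 and 0.376, of which 1 is under the 0.1 asked of every pair, so the number was not taken to pair samples in either comparison. With a replicate block the counts were 6729 higher and 6221 lower against parental, 5300 and 5603 against resistant 1, and 3426 and 3101 particular to resistant 2. With 3 libraries a group, small changes can be missed, and genes with few reads have folds that depend on the pseudocount.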
